A study of Vitis vinifera with 40 samples.

Results

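Somatic embryos are embryos that form from body tissue and not from a fertilised egg. In culture, auxin starts and holds the proliferating globular state, and the move to a medium without hormones lets the embryo set its axis, form the paired cotyledon lobes that give the heart stage its name, and go on to the torpedo stage. Auxin acts in plant cells by releasing transcription factors from their repressors, and the same signal, moved from cell to cell by carriers, later places the shoot pole, the root pole and the vascular strands of the embryo. Cytokinins, read by histidine kinase receptors and passed on to response regulators, act beside it in the meristems.

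The comparison described here was that of the heart stage (H) with the globular stage 2 (G2) of grapevine, Vitis vinifera, across the auxin removal step. The members were 3 H libraries, of embryos on hormone-free medium in constant dark, and 3 G2 libraries, of embryos on auxin medium in constant dark, 6 of 40 libraries that cover 12 stages. The stages run from early induction (EI) and the pre-globular stage (PG) over globular 1 (G1), G2, H, torpedo 1 and 2 (T1, T2) and cotyledonary 1 and 2 (C1, C2) to seedlings (S), seedlings with epicotyl (EP) and juvenile plants (JP). All embryos came from anther explants of the cultivar Malvasia Istriana. The induction medium held the auxins 2,4-D and naphthoxyacetic acid and also the cytokinin benzyladenine, whereas the hormone-free medium held activated charcoal. G2 embryos were collected by sieving and H embryos were picked singly by shape and size. Developmental stage, loss of auxin, loss of cytokinin, charcoal and the way of collection changed together between G2 and H and cannot be told apart. Each library pooled embryos, so fewer cells of a type and less RNA per cell cannot be told apart either. The labels number the replicates but do not say whether they came from separate cultures, and p-values measure the spread between these libraries.

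Gene totals lay between 26671004 and 31139525 counts in H and between 21036578 and 24785414 counts in G2. The 10 most abundant genes of a library took 5.04% to 6.07% of its counts in H and 14.9% to 17.9% in G2. Levels are given as CPM, the counts of a gene per unit of library total scaled with TMM factors, which compare one gene between libraries and not genes of different length. Within H, replicate 2 lay farthest from G2 in 113 of the 144 called genes picked for naming, and replicate 3 lay nearest to G2 in the distances over the most variable genes. Without H replicate 2, 10298 genes were called in place of the 12138 described below, and 134 of the 144 were among them. VIT_09s0002g01590, annotated with the term somatic embryogenesis, was measured in both stages, at 26.9, 29.3 and 23.1 CPM in H, against 8.77, 11.1 and 12.9 CPM in G2. This gene alone does not stand for the term. The study plotted several genes of the term and described most as highest in EI and PG and falling toward JP. It described a like trend for homologs of BBM and SERK. Markers of floral tissue, from which the explants were cut, were near 0 in both. AG, which specifies stamens and carpels, reached at most 0.0657 CPM in H and 0.0782 CPM in G2, and MADS4, another MADS-box gene, had 0.0486, 0 and 0.0657 CPM in H, against 0.342, 0.313 and 0.502 CPM in G2. LHCA2, a light-harvesting protein of photosystem I and a marker of green tissue, reached at most 0.121 CPM in H and 0.0772 CPM in G2, and both stages grew in the dark.

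A majority of the genes measured in these embryos differed between the stages. Of 21485 genes tested with edgeR's quasi-likelihood test, 12138 (56.5%) differed at an adjusted p below 0.05, and with DESeq2 11871 did. In H, 5929 genes were higher (27.6%) and 6209 were lower (28.9%). Differences over 2-fold were called for 2327 genes higher in H (10.8%) and for 2819 lower in H (13.1%). All H libraries lay above all G2 libraries in 7235 genes (33.7%) and below them in 6927 (32.2%). The balance of both directions depended on the scaling. With libraries scaled by their total counts alone, every log2 fold change moved up by about 0.24, and 7911 genes were called higher in H and 4018 lower, so that 66.3% of the calls were higher against 48.8% with TMM factors. As shares of all genes tested these were 36.8% higher and 18.7% lower, the background for the list counts given below with total counts. One model of all 40 libraries, which shares 1 estimate of the spread over 12 stages, called 5611 genes, 5284 of them among the 12138. Of the 144 genes picked for naming, 85 passed in that model. Values in parentheses below are log2 fold changes of H over G2 with edgeR's adjusted p.

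**Figure D1:**
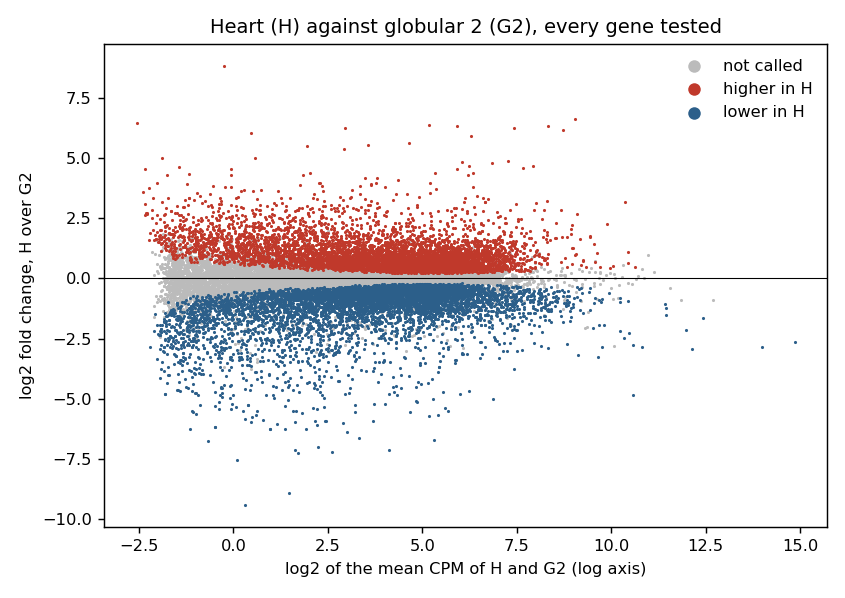
Log2 fold change of H over G2 (y axis) against the log2 of the mean CPM of both stages (x axis) for the 21485 genes tested. Red points are the 5929 genes called higher in H, blue points the 6209 called lower and grey points those not called; both directions are filled at all levels, and several of the most abundant genes on the right lie below 0.

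Genes annotated as responding to auxin were mostly lower after the move off auxin. Of 19 such genes, 13 were measured well enough to test, and 9 were lower in H and 3 higher, beside 28.9% and 27.6% of all genes. The median log2 fold change of the 13 was -1.36, and that of all genes was -0.04. Scaled by total counts, 7 were lower and 3 higher. The summed level of the 19 genes was 226, 216 and 218 CPM in H, against 465, 421 and 365 CPM in G2.

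VIT_07s0141g00270, whose printed annotation names no other process than the response to auxin, was the most strongly lowered of them. It had 0.875, 0.396 and 1.25 CPM in H, against 34, 27.5 and 32.2 CPM in G2, a log2 fold change of -5.22 (SE 0.356, edgeR adjusted p = 0.000328). Its mean was between 31.2 and 63.3 CPM in the 4 stages on auxin and at most 12 CPM in each of the 8 later stages. VIT_12s0134g00230, annotated with responses to auxin and to light, had 1.12, 1.06 and 1.44 CPM in H, against 46.7, 35.6 and 17.1 CPM in G2 (log2 fold change -4.79, SE 0.403, adjusted p = 0.000435). It stood higher in G2 than in any other stage, with means of 12.4 CPM in EI, 4.51 CPM in PG and 8.34 CPM in G1, and from T1 on it stayed at or below 2.04 CPM. In neither gene did the libraries of H and G2 overlap.

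The other lowered members moved by smaller amounts. VIT_19s0014g04690, whose terms include auxin signalling and the making of the indole phytoalexin camalexin, had 48.8, 49.7 and 60.5 CPM in H, against 182, 153 and 114 CPM in G2 (-1.52, adjusted p = 0.000995). VIT_11s0016g02570, with terms for phospholipase activity, gravitropism and pollen germination, had 24.4, 13.6 and 18.9 CPM in H, against 55.2, 56.1 and 57 CPM in G2 (-1.59, adjusted p = 0.00114). VIT_07s0129g00210, which also carries gibberellin and jasmonate responses and a ubiquitin ligase complex term, had 10.6, 10.7 and 18.7 CPM in H, against 32.9, 37.5 and 43 CPM in G2 (-1.53, adjusted p = 0.00257). All of these stood apart in every library. VIT_00s0299g00100, a transcription factor with shade avoidance and cytokinin terms, had 19.1, 9.38 and 13.9 CPM in H, against 46.5, 40.5 and 19.8 CPM in G2, so that its highest H library nearly reached its lowest G2 library (-1.36, adjusted p = 0.0178). Its call was lost without G2 replicate 1 (adjusted p = 0.0597), G2 replicate 2 (0.0696), H replicate 2 (0.0557) or H replicate 3 (0.05). VIT_14s0060g00470, a transporter with auxin transport terms, stayed below 1 CPM in both stages (-1.69, adjusted p = 0.00426). VIT_05s0049g01970, a transcription factor with embryo and vascular pattern terms, differed by -0.69 (adjusted p = 0.0249), and VIT_05s0020g01340 by -0.33 (adjusted p = 0.0415). Both of these calls were lost without any one of 4 or more of the 6 libraries, and with total count scaling.

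The 3 genes of the list that were higher in H all carry terms for tissue pattern too. VIT_00s0772g00020 and VIT_00s1291g00010 share the same printed terms for the upkeep of the shoot meristem, root form and radial pattern. VIT_00s0772g00020 had 67.2, 80.4 and 57.8 CPM in H, against 22.4, 27.8 and 41.6 CPM in G2 (1.13, SE 0.249, adjusted p = 0.00823). VIT_00s1291g00010 had 23.9, 27 and 18.3 CPM in H, against 8.77, 10.4 and 10.8 CPM in G2 (1.18, SE 0.17, adjusted p = 0.00174). The sources used here do not say how reads that fit both were counted, so the pair may not be independent. Their means over the 12 stages were highest in H, while the vascular pattern gene VIT_07s0151g00290 went on to higher levels later. It had 5.64, 4.62 and 5.36 CPM in H, against 1.15, 1.45 and 2.16 CPM in G2 (1.69, SE 0.254, adjusted p = 0.00197), and a mean of 46.1 CPM in T2.

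**Figure D2:**
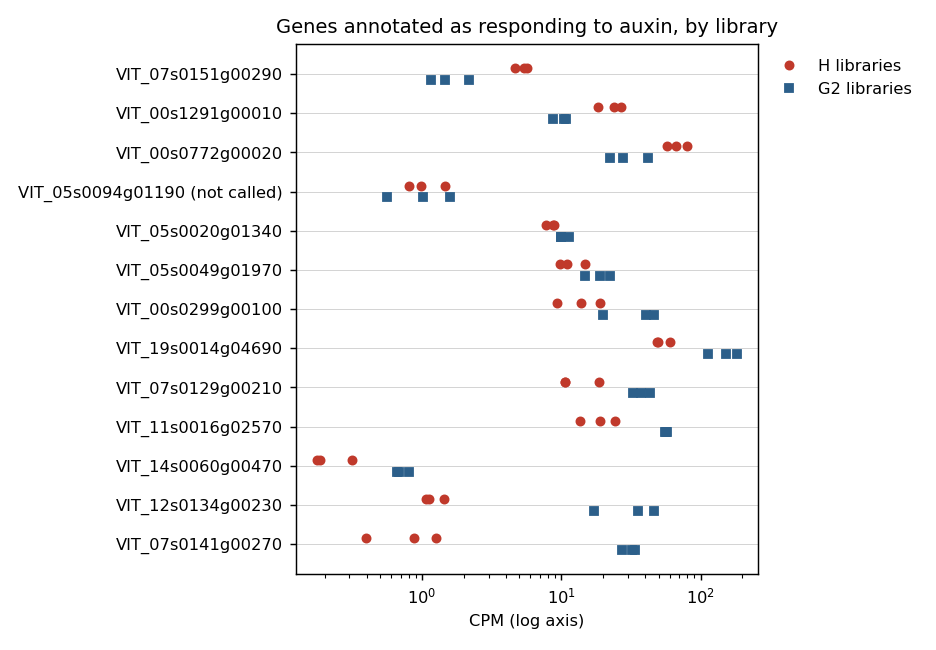
Level in CPM (log axis) of the 13 tested genes annotated as responding to auxin, one row a gene, with the 3 H libraries as red circles above the 3 G2 libraries as blue squares. The 9 lower genes lie at the bottom and the 3 higher genes at the top; in VIT_07s0141g00270 every H library is at or below 1.25 CPM and every G2 library at or above 27.5 CPM.

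Auxin carriers and genes of auxin balance did not share a direction. Of 6 tested, 1 was higher and 2 lower, and 1 of the 2 was VIT_14s0060g00470 above. VIT_11s0016g03050, with the term auxin homeostasis, had 10.8, 10.7 and 10 CPM in H, against 21.8, 20 and 15.8 CPM in G2 (-0.89, adjusted p = 0.00175). VIT_17s0000g02420, with terms for polar auxin transport and gravitropism, had 82, 75.6 and 72.2 CPM in H, against 59.1, 51.2 and 38.1 CPM in G2 (0.61, adjusted p = 0.0158). Its call was lost without H replicate 1 (adjusted p = 0.0507).

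Cytokinin genes did not share a direction. VIT_12s0057g00690, annotated as a cytokinin receptor with histidine kinase activity, had 64.2, 71.8 and 56.5 CPM in H, against 35.1, 29.8 and 31.3 CPM in G2 (0.97, SE 0.115, adjusted p = 0.00094). RRB3 and RRB5, named as type-B response regulators, the transcription factors at the end of the relay, were also higher. RRB3 had 53.7, 62.5 and 59.2 CPM in H, against 38.1, 38.3 and 42.4 CPM in G2 (0.53, adjusted p = 0.00404). RRB5 differed by only 0.28 (adjusted p = 0.0498), with 11.8, 12.7 and 13.4 CPM in H, against 10.8, 10.1 and 9.8 CPM in G2, and its call was lost without any of 5 of the 6 libraries. The RRB5 call was also lost with DESeq2 (adjusted p = 0.0721), without the filter, with the replicate block, after thinning and in the model of all libraries. RRA1, named as a type-A response regulator, a class that cytokinin induces and that dampens the signal in Arabidopsis, went the other way. RRA1 had 8.58, 2.35 and 5.23 CPM in H, against 42.4, 34.7 and 24.7 CPM in G2, a log2 fold change of -2.68 (SE 0.45, adjusted p = 0.00293). Its stage means were 61.4 CPM in EI, 72.6 CPM in PG and 53.4 CPM in G1, and 30.9 CPM again in T1, so H lay below the stages on both sides of it. Low means were not confined to H, at 5.39 CPM. RRA1 had means of 6.68 CPM in T2, 12.7 CPM in C1, 42.4 CPM in C2 and 8.62 CPM in JP. VIT_07s0104g01260, with terms for cytokinin and brassinosteroid responses and for auxin synthesis, had 3.67, 3.88 and 6.46 CPM in H, against 17.1, 17.7 and 22.6 CPM in G2 (-2.06, SE 0.253, adjusted p = 0.00104). Of the genes annotated as responding to cytokinin, 5 were tested, with 2 higher and 2 lower, and the others called were VIT_06s0004g05150, a gene of chloroplast import (0.34, adjusted p = 0.0175), and VIT_00s0299g00100 above.

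Genes of embryo and meristem development were more often higher than lower in H. In the embryo development list 8 of 17 tested were higher (47.1%) and 5 lower (29.4%), with a median of 0.38; in pattern specification 12 of 27 were higher (44.4%) and 5 lower (18.5%), with a median of 0.28; and in meristem development 4 of 7 were higher and 1 lower, with a median of 1.18. Of all genes tested, 27.6% were higher and 28.9% lower. With total count scaling 10 were higher and 2 lower in embryo development, 15 and 3 in pattern specification and 5 and 1 in meristem development, with medians of 0.62, 0.52 and 1.42. With TMM factors, the mean summed levels of these lists did not rise. They were 538 CPM in H and 545 CPM in G2 for embryo development, and 959 and 1100 CPM for pattern specification. For meristem development they were 209 CPM in H and 255 CPM in G2. As a share of the total counts, embryo development was higher in every H library. It took 0.079%, 0.076% and 0.0782% in H, against 0.0678%, 0.0641% and 0.0718% in G2. The shares of pattern specification and of meristem development overlapped between H and G2. The higher meristem genes include the pair VIT_00s0772g00020 and VIT_00s1291g00010 above, which also counts in pattern specification. VIT_07s0005g02390, a protein phosphatase with meristem and stem cell maintenance terms, had 62.8, 77.7 and 61.2 CPM in H, against 25.8, 24.8 and 26.3 CPM in G2 (1.36, SE 0.114, adjusted p = 0.000435). Its H level lay above all 11 other stage means, which ranged from 19.9 to 36.8 CPM. VIT_17s0000g08320 and its neighbour by identifier VIT_17s0000g08330, both with pattern and cell cycle terms, were higher by 1.6 (adjusted p = 0.000778) and by 1.45 (adjusted p = 0.00133). VIT_07s0031g00980, an aminotransferase of aspartate and of aromatic amino acid synthesis listed under embryo development, had 53.8, 59.3 and 44.2 CPM in H, against 22.1, 19.4 and 19.8 CPM in G2 (1.33, SE 0.126, adjusted p = 0.000542). The other 7 higher members of that list included housekeeping functions, among them tubulin folding (VIT_15s0048g00470, 0.55), a topoisomerase (VIT_01s0127g00480, 0.55), phospholipase D (VIT_02s0025g04620, 0.77) and a prenyltransferase of ubiquinone synthesis (VIT_15s0024g00850, 0.79). VIT_11s0037g00250, of phosphatidylglycerol synthesis, differed by 0.38 (adjusted p = 0.0131).

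The lowered gene of the meristem list was VIT_06s0004g01800, a transcription factor annotated with meristem growth and stem cell maintenance. It had 45.5, 46 and 43 CPM in H, against 238, 206 and 114 CPM in G2, a log2 fold change of -2.08 (SE 0.257, adjusted p = 0.00106). It was highest in PG, with a mean of 420 CPM, and was at 22.6 CPM in T2, 5.76 CPM in C1 and 0.0384 CPM in juvenile plants. In embryo development VIT_03s0063g01380, with a term for pollen tube guidance, had 46.2, 35.1 and 81.9 CPM in H, against 111, 137 and 213 CPM in G2 (-1.53, adjusted p = 0.0127). The ribosomal gene VIT_19s0135g00100 (-0.6, adjusted p = 0.00744) and the prenyl diphosphate synthase VIT_04s0023g01210 (-0.57, adjusted p = 0.00289) were also lower. In pattern specification VIT_04s0008g00650, also listed under microtubule organisation, had 102, 69.6 and 94 CPM in H, against 264, 244 and 211 CPM in G2 (-1.46, adjusted p = 0.00088).

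Genes coding for ribosomal proteins were lower in H, none of them higher. Of 21 tested, 14 were lower, 66.7% against 28.9% of all genes, with a median of -0.51, and scaled by total counts 7 were lower and none higher, with a median of -0.27. DESeq2 also called none higher, and none was higher at an unadjusted p below 0.05 with either tool. The summed level of the list was 2020, 1480 and 1790 CPM in H, against 2720, 2830 and 2950 CPM in G2. VIT_04s0008g03900 had 107, 50.7 and 86.9 CPM in H, against 206, 215 and 214 CPM in G2 (-1.41, adjusted p = 0.00407), and VIT_01s0011g00680 had 118, 71 and 102 CPM in H, against 222, 238 and 252 CPM in G2 (-1.32, adjusted p = 0.00183). H replicate 2 was the lowest library in both. The list did not run in one direction over the stages, for its summed mean was 2090 CPM in G1, 2830 CPM in G2, 1760 CPM in H and 3180 CPM in T1. Genes of rRNA processing, which share members with this list, had 11 of 24 lower (45.8%) and 5 higher (20.8%), beside 28.9% and 27.6% of all genes. With total counts 5 were lower and 8 higher, beside 18.7% and 36.8% of all genes. Protein folding had 7 of 13 lower (53.8%) and 1 higher (7.69%), and 5 lower and 1 higher with total counts. The list was led by VIT_01s0011g04990, a gene with chaperone and mitochondrial import terms, at 48.3, 27.5 and 102 CPM in H, against 298, 255 and 171 CPM in G2 (-2.05, adjusted p = 0.0103).

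Genes of mRNA splicing and of chromatin changed in the other direction or in both. Of 18 splicing genes, 8 were higher (44.4%) and 2 lower (11.1%), with a median of 0.42, and 10 were higher and 2 lower with total counts. VIT_05s0049g01490 had 78.7, 97.4 and 72.5 CPM in H, against 33, 35.7 and 37.9 CPM in G2 (1.19, adjusted p = 0.000831). Of 26 genes of chromatin organisation, 10 were higher (38.5%) and 7 lower (26.9%), and 10 and 3 with total counts, where the median moved to 0.18 beside -0.06 with TMM factors. VIT_15s0046g02290, annotated with chromatin remodelling and the boundaries of organs, had 230, 277 and 206 CPM in H, against 93.3, 79.4 and 71.7 CPM in G2 (1.52, SE 0.153, adjusted p = 0.000646), and its H mean was the highest of the 12 stages. VIT_01s0150g00140, with terms for DNA methylation and a ubiquitin ligase, had 43.2, 45.4 and 34.7 CPM in H, against 109, 83.7 and 54.2 CPM in G2 (-1.02, adjusted p = 0.0114). VIT_06s0004g04370, a gene of the nucleosome, differed by -1.14 (adjusted p = 0.0347), a call lost without any 1 of the G2 libraries or H replicate 3. It was also lost with total counts (adjusted p = 0.0714).

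The calls among genes of the mitotic cell cycle and of cytokinesis depended on the scaling. Of 40 genes of the mitotic cell cycle, 7 were higher and 8 lower with TMM factors, and 13 were higher and 1 lower with total counts. Of 9 cytokinesis genes 1 was higher with TMM factors and 6 with total counts, and none was lower with either. DNA replication had 6 of 14 higher (42.9%) and 2 lower (14.3%), and 6 and 1 with total counts. Its median log2 fold change was -0.07 with TMM factors and 0.18 with total counts. Its mean summed level with TMM factors was 1140 CPM in H, against 1340 CPM in G2. Its share of the total counts overlapped, at 0.155%, 0.173% and 0.164% in H, against 0.164%, 0.161% and 0.176% in G2. A gene lower by a larger amount was VIT_01s0010g01830, listed under DNA replication and rRNA processing, with 6.2, 5.63 and 6.52 CPM in H, against 24.7, 20.7 and 16.4 CPM in G2 (-1.78, SE 0.161, adjusted p = 0.000503).

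**Figure D3:**
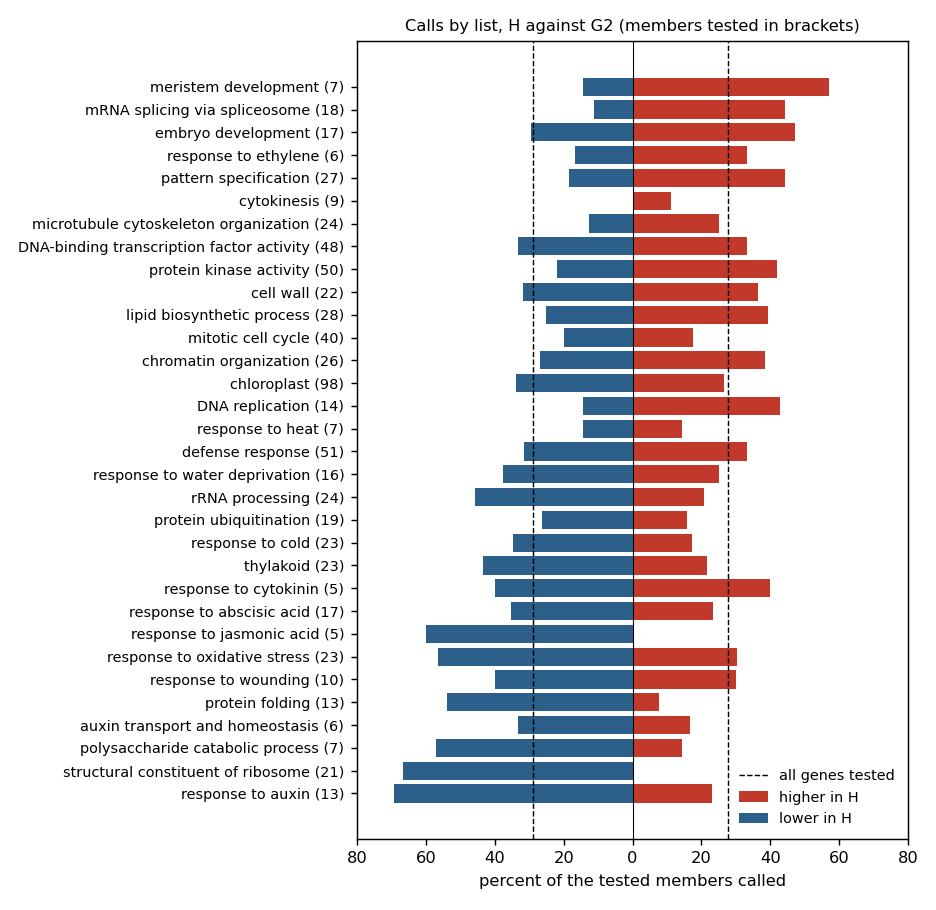
Percent of the tested members of each list called higher in H (red, to the right) or lower in H (blue, to the left), with the number tested in brackets and lists of fewer than 5 left out. Dashed lines mark all genes tested (27.6% higher, 28.9% lower); the auxin response (69.2%) and ribosomal protein (66.7%) lists reach farthest to the left and the meristem list (57.1%) farthest to the right.

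Genes of the cell wall changed in both directions, as did genes in general. Of 22 tested, 8 were higher (36.4%) and 7 lower (31.8%), beside 27.6% and 28.9% of all genes. With total counts 9 were higher and 6 lower, beside 36.8% and 18.7% of all genes. VIT_16s0022g01430, a cell wall protein with a response to karrikin, the smoke signal of germination, had 149, 145 and 146 CPM in H, against 10.9, 15.4 and 28.1 CPM in G2 (2.98, SE 0.349, adjusted p = 0.000908). VIT_04s0023g02570, with peroxidase and lignin terms, had 40.6, 51 and 33.1 CPM in H, against 5.22, 6.49 and 10.2 CPM in G2 (2.48, SE 0.287, adjusted p = 0.00088). VIT_16s0022g01430 had means between 84.8 and 297 CPM in every later stage. VIT_04s0023g02570 was at 6.69, 2.99 and 5.32 CPM in T1 and had means of 43.7 CPM in S and 64.2 CPM in EP. VIT_10s0003g05420, an oxidoreductase of the wall, had 9.67, 9.69 and 14.7 CPM in H, against 68.2, 68.8 and 63.2 CPM in G2 (-2.58, SE 0.182, adjusted p = 0.000354). VIT_10s0092g00240, a glucosidase, had 4.59, 4.52 and 6.41 CPM in H, against 18, 17.9 and 16.4 CPM in G2 (-1.78, adjusted p = 0.000504).

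The chloroplast list showed no common direction, whereas the thylakoid list had more lower than higher genes with both scalings. In the chloroplast list 26 of 98 were higher and 33 lower, against 33 higher and 24 lower with total counts, and the median changed sign with the scaling (-0.07 with TMM factors, 0.17 with total counts). In the thylakoid list 10 of 23 were lower (43.5%) and 5 higher (21.7%), beside 28.9% and 27.6% of all genes, with a median of -0.32. With total counts 9 were lower and 6 higher, beside 18.7% and 36.8% of all genes, with a median of -0.09. VIT_18s0001g06250, a chloroplast gene, had 315, 394 and 281 CPM in H, against 56.2, 58.5 and 59.3 CPM in G2 (2.48, SE 0.153, adjusted p = 0.000305). VIT_12s0028g02180, a phosphoenolpyruvate carboxylase, had 77.1, 78.3 and 63 CPM in H, against 34.8, 30.8 and 24.1 CPM in G2 (1.26, adjusted p = 0.00103). VIT_17s0000g06450, ribulose-phosphate epimerase of the carbon-fixing cycle, had 10.6, 9.56 and 13.2 CPM in H, against 29.1, 30.3 and 27.2 CPM in G2 (-1.4, adjusted p = 0.000557).

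Lists of stress and of abscisic acid, the hormone of drought and of embryo maturation, had balances of higher and lower calls that in part depended on the scaling. Among all genes 28.9% were lower and 27.6% higher, and 18.7% and 36.8% with total counts. In the oxidative stress list 13 of 23 were lower (56.5%) and 7 higher (30.4%), and 9 and 7 with total counts. Of 17 genes responding to abscisic acid, 6 were lower (35.3%) and 4 higher (23.5%), and 5 and 4 with total counts. Of 23 genes responding to cold, 8 were lower and 4 higher, but 6 lower and 7 higher with total counts. Of 16 genes responding to water deprivation, 6 were lower and 4 higher, but 4 lower and 5 higher with total counts. The defense list had 16 of 51 lower and 17 higher, and 12 lower and 22 higher with total counts. Of 7 genes responding to heat, 1 was lower and 1 higher, and 1 and 3 with total counts. VIT_18s0001g00360, with cold and drought terms, had 32.7, 8.35 and 34.7 CPM in H, against 137, 170 and 228 CPM in G2 (-2.85, SE 0.534, adjusted p = 0.00443). VIT_07s0005g04460, an ABC transporter of abscisic acid signalling, had 61.4, 75.3 and 53.8 CPM in H, against 24.6, 21.5 and 22 CPM in G2 (1.45, SE 0.138, adjusted p = 0.000549). NCED2, of abscisic acid synthesis, had 4.96, 5.23 and 4.12 CPM in H, against 1.71, 2.31 and 3.9 CPM in G2, and did not pass the test (0.83, adjusted p = 0.0575). NCED2 passed with DESeq2 (adjusted p = 0.019), with total counts (0.017), without the filter on low counts (0.046), after thinning (0.0448) and without G2 replicate 3, the library nearest to H (0.00382), and did not pass under the other alternatives, whose adjusted p lay between 0.051 and 0.215.

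Protein kinases had 21 of 50 higher (42.0%) and 11 lower (22.0%), beside 27.6% and 28.9% of all genes, and 23 higher and 5 lower with total counts. Transcription factors had 16 of 48 in each direction (33.3%) with TMM factors, and 21 higher and 12 lower with total counts. VIT_12s0028g03520, a calmodulin-binding kinase, had 9.72, 12.8 and 9.68 CPM in H, against 2.3, 2.39 and 1.62 CPM in G2 (2.32, SE 0.202, adjusted p = 0.000462), and no other stage mean was above 2.44 CPM. VIT_07s0005g01680, with terms for a galactosyltransferase of raffinose metabolism and for oxidative stress, had 11.7, 16.1 and 9.59 CPM in H, against 1.87, 2.31 and 3.24 CPM in G2 (2.31, adjusted p = 0.00103).

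Of 45 genes that the study pairs with a name, 39 were tested and 20 differed, 7 higher in H and 13 lower. Of the 20, 9 differed over 2-fold. Among all genes tested, 56.5% differed and 24.0% differed over 2-fold, so the named genes did not change more often than genes in general. ICE1, which switches on cold response genes in Arabidopsis, had 101, 123 and 91.5 CPM in H, against 28.9, 30.4 and 30.7 CPM in G2 (1.78, SE 0.13, adjusted p = 0.000391). SOS1, a sodium exporter of the plasma membrane, had 179, 226 and 154 CPM in H, against 82.6, 84.1 and 101 CPM in G2 (1.03, SE 0.171, adjusted p = 0.00278). CUL4, the scaffold of a ubiquitin ligase, differed by 0.94 (adjusted p = 0.00143).

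Among the 13 lower were GOX, GS, MLO6, INT3, AP1 and FAOMT. GOX, glycolate oxidase of photorespiration, had 103, 106 and 105 CPM in H, against 484, 417 and 279 CPM in G2 (-1.93, SE 0.202, adjusted p = 0.000701). GS, glutamine synthetase, which takes up ammonium, had 26.4, 21.1 and 25.1 CPM in H, against 92.2, 88.1 and 80.8 CPM in G2 (-1.87, SE 0.113, adjusted p = 0.000305). MLO6, of a family of membrane proteins known for powdery mildew susceptibility, had 55.1, 41.5 and 62.4 CPM in H, against 246, 276 and 342 CPM in G2 (-2.47, SE 0.207, adjusted p = 0.000435). INT3 had 3.43, 3.33 and 4.12 CPM in H, against 9.11, 8.76 and 9.3 CPM in G2 (-1.35, adjusted p = 0.000622). AP1, a floral meristem gene, stayed under 1 CPM, at 0.0972, 0.0264 and 0.109 CPM in H, against 0.591, 0.548 and 0.965 CPM in G2 (-3.11, SE 0.481, adjusted p = 0.00217). FAOMT, which methylates flavonoids, differed by -1.01 (adjusted p = 0.0267) with 1.31, 1.32 and 1.27 CPM in H, against 2.92, 3.32 and 1.47 CPM in G2, a call lost without any 1 of 5 libraries. It was also lost with total counts (adjusted p = 0.0679).

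The other named genes called were below 2-fold. MDH, malate dehydrogenase, differed by 0.44 (adjusted p = 0.00422) and ATP8 by 0.53 (adjusted p = 0.0315), a call lost without G2 replicate 1, G2 replicate 2 or H replicate 1. ATP8 was also lost with the replicate block (adjusted p = 0.0847). CBL02, a calcium sensor, was lower at 66.1, 46.1 and 54.6 CPM in H, against 93.9, 99.4 and 100 CPM in G2 (-0.84, adjusted p = 0.00297), and CIPK01, a kinase of the family that such sensors bind, by -0.44 (adjusted p = 0.0402), a call lost without any of 5 libraries. CIPK01 was also lost with DESeq2 (adjusted p = 0.0755) and with total counts (adjusted p = 0.318), among other settings. INT2 (-0.78), OMT3.1 (-0.88), HIR (-0.52) and GATA (-0.3) were the others, of which HIR was lost without any 1 of the G2 libraries and GATA without G2 replicate 1 or 2. With total counts HIR (adjusted p = 0.205) and GATA (adjusted p = 0.647) were lost, and GATA also with DESeq2 (adjusted p = 0.092). Among the 19 not called were GAI1, a DELLA repressor of gibberellin responses, at 9.31, 12.9 and 8.76 CPM in H, against 11.7, 11 and 8.84 CPM in G2 (-0.05, adjusted p = 0.825), and PHYE, a phytochrome, at 28.6, 30.7 and 58.8 CPM in H, against 19, 20.7 and 27.7 CPM in G2 (0.78, adjusted p = 0.0665). AG, CIPK16, LHCA2, MADS4, MYBC2-L1 and THI1-2 were too low to test.

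Outside the lists, the largest changes were those of genes that the sources used here do not name. VIT_05s0049g00770 had 913, 1480 and 729 CPM in H, against 9.45, 9.31 and 12.3 CPM in G2 (6.62, SE 0.361, adjusted p = 0.000296), and its mean was at most 109 CPM in any stage other than H. VIT_05s0077g01560 had 66.4, 90.1 and 58 CPM in H, against 0.249, 0.861 and 1.47 CPM in G2 (6.39, SE 0.515, adjusted p = 0.000429). VIT_10s0003g05780 had 0.486, 0.106 and 0.131 CPM in H, against 42.7, 36.9 and 22.9 CPM in G2 (-7.15, SE 0.513, adjusted p = 0.000369), and reached 2240 CPM in seedlings. VIT_03s0038g02880 had 0.0486, 0 and 0.175 CPM in H, against 17.1, 14.8 and 4.32 CPM in G2; its fitted log2 fold change of -7.21 rests on few counts in H.

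A few abundant genes took a smaller part of the counts in H. VIT_10s0003g04500 had 12800, 2940 and 9300 CPM in H, against 50100, 52200 and 49900 CPM in G2 (-2.63, SE 0.599, adjusted p = 0.00943), which was 1.86%, 0.418% and 1.36% of the counts in H and 6.49%, 6.31% and 6.14% in G2. VIT_12s0028g01130 had 6110, 808 and 5130 CPM in H, against 28300, 28600 and 27900 CPM in G2 (-2.84, SE 0.73, adjusted p = 0.015). In both, H replicate 2 was far below the other H libraries. VIT_05s0020g01170 had 2680, 1510 and 3940 CPM in H, against 5750, 7720 and 11600 CPM in G2 (-1.66, adjusted p = 0.0181, and 0.0565 without H replicate 1). VIT_06s0009g02780 did not pass the test (-0.9, adjusted p = 0.717), with libraries far apart within each stage, at 166, 13900 and 140 CPM in H, against 330, 21600 and 3770 CPM in G2. Without H replicate 2 its log2 fold change was -5.83 (adjusted p = 0.0497). The sources used here name none of these 4 genes.

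**Figure D4:**
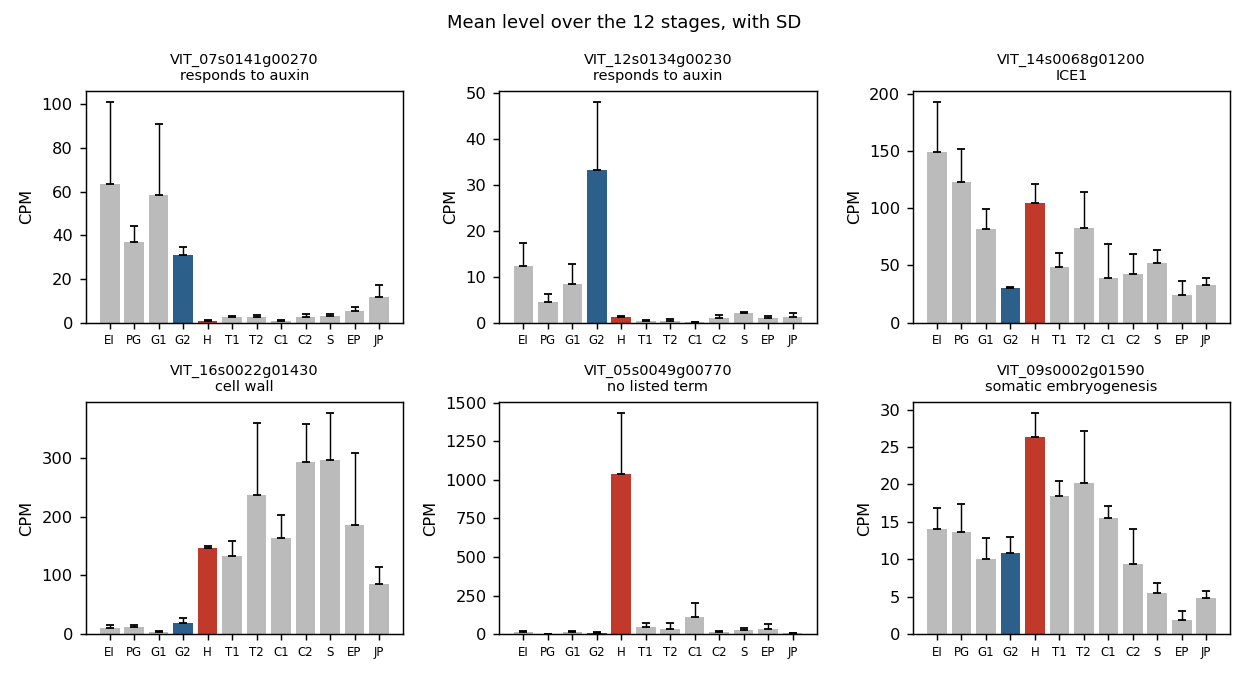
Mean level in CPM (y axis, from 0) over the 12 stages in order of development (x axis) for 6 genes, with G2 in blue, H in red, and error bars of 1 SD over 3 libraries (5 in C2 and EP). The auxin-responsive VIT_07s0141g00270 is at or below 12 CPM from H on, VIT_16s0022g01430 is high from H on, and VIT_05s0049g00770 stands at 1040 CPM in H and at or below 109 CPM elsewhere.

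The same change of medium lies between G1 and T1, whose 6 libraries take no part in the comparison of H with G2. T1 was on hormone-free medium and G1 on auxin medium, both in the dark, and more development lies between them. Of 21677 genes tested, 4227 (19.5%) differed, 2248 higher in T1 (10.4%) and 1979 lower (9.13%). The G1 libraries differed among themselves in floral markers, and AG reached at most 0.106 CPM in T1, against 12.3, 0.145 and 5.76 CPM in G1. MADS4 reached at most 0.319 CPM in T1, against 20.5, 0.618 and 11.5 CPM in G1, and the part of floral tissue in these calls was not tested. Without G1 replicate 3 the count was 1985, without T1 replicate 1 it was 2374 and without T1 replicate 3 it was 2646.

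Genes higher in H leaned to the same side in T1, but most were not called there. Of 5760 genes higher in H and tested in both, 885 (15.4%) were higher in T1 and 196 (3.4%) lower, beside 10.2% and 8.59% of all 21010 genes tested in both. Of 6117 genes lower in H, 1016 (16.6%) were lower in T1 and 278 (4.54%) higher. The shares were larger for changes over 2-fold, where 565 of 2164 genes higher in H (26.1%) were higher in T1 and 89 (4.11%) lower, and 806 of 2731 genes lower in H (29.5%) were lower in T1 and 110 (4.03%) higher.

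Several of the genes above repeated their change in T1 against G1. VIT_07s0141g00270 had 2.17, 2 and 3.08 CPM in T1, against 29.2, 93.8 and 51.7 CPM in G1 (-4.57, adjusted p = 0.00161), and VIT_12s0134g00230 differed by -4.59 (adjusted p = 0.00508). VIT_19s0014g04690 differed by -2.04 (adjusted p = 0.00213), GOX by -2.04 (adjusted p = 0.00939), INT3 by -1.33 (adjusted p = 0.0123), VIT_07s0104g01260 by -5.27 (adjusted p = 0.00432) and VIT_10s0003g05420 by -5.25 (adjusted p = 0.0107). On the higher side, VIT_16s0022g01430 had 145, 150 and 103 CPM in T1, against 5.2, 2.11 and 4.91 CPM in G1 (5.02, adjusted p = 0.00104), VIT_07s0151g00290 differed by 3.79 (adjusted p = 0.00104) and VIT_18s0001g06250 by 1.28 (adjusted p = 0.0419). RRA1 had 26.1, 26.8 and 39.7 CPM in T1, against 62.1, 44 and 54 CPM in G1, which did not pass the test (-0.79, adjusted p = 0.0719). As lists, the 15 auxin-responsive genes tested had 4 lower and 3 higher in T1 (median 0.01), and the 21 ribosomal genes had 1 in each direction (median 0.56).

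The genes called were also followed over the stages that took no part in the comparison. Of the 5929 genes higher in H, 1614 (27.2%, against 16.9% of all genes tested) had means in T1, T2 and C1 that were all above those of EI, PG and G1. Of the 6209 genes lower in H, 1694 (27.3%, against 14.5%) had the opposite pattern. The H mean was the highest of the 12 stages in 2789 of the genes higher in H (47.0%, against 15.2% of all genes tested) and the lowest in 1771 of those lower in H (28.5%, against 10.1%). These last shares use the H libraries that chose the genes and are a description.

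The transcriptome age index weights the evolutionary age class of each gene (phylostratum 1 for the oldest, 18 for those particular to grapevine) by its level, so that a lower value means an older transcriptome. Age classes were at hand for 3839 genes, which held 11.8% of the counts in each H library and between 10.8% and 11.4% in G2, and the index describes this subset. It was 4.54, 4.33 and 4.57 in H, against 5.37, 5.2 and 5.18 in G2, a difference of -0.769. The libraries did not overlap, and the exact two-sided permutation test gave p = 0.1, the smallest that 3 against 3 allows. The H mean of 4.48 was the lowest of the 12 stages and that of PG, 6.3, the highest. T1 and G1 also differed, at 4.79, 5.06 and 4.71 in T1, against 6.58, 5.55 and 5.9 in G1 (exact permutation p = 0.1).

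A pair of young genes made up most of that difference. VIT_01s0011g04570, of phylostratum 16, took 0.132%, 0.0586% and 0.199% of the counts of these genes in H, against 4.82%, 3.37% and 1.88% in G2, and its part of the difference was -0.359. VIT_18s0001g03640, of phylostratum 18, took 0.961%, 0.104% and 0.56% in H, against 1.88%, 2.26% and 2.44% in G2, and its part was -0.216. Without both, the index was 4.4, 4.31 and 4.47 in H, against 4.57, 4.51 and 4.64 in G2, a difference of -0.18, and on log2(CPM + 1) levels it was -0.0238 (exact permutation p = 0.3). By number the youngest genes did not stand out, for 41 of 195 genes of phylostrata 15 to 18 were higher (21.0%) and 49 lower (25.1%). Their share of the counts was 2.87%, 1.72% and 2.55% in H, against 8.77%, 7.74% and 6.49% in G2, and that of the oldest genes, phylostratum 1, was 48.6%, 51% and 48.4% in H, against 43.1%, 45% and 44.1% in G2.

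**Figure D5:**
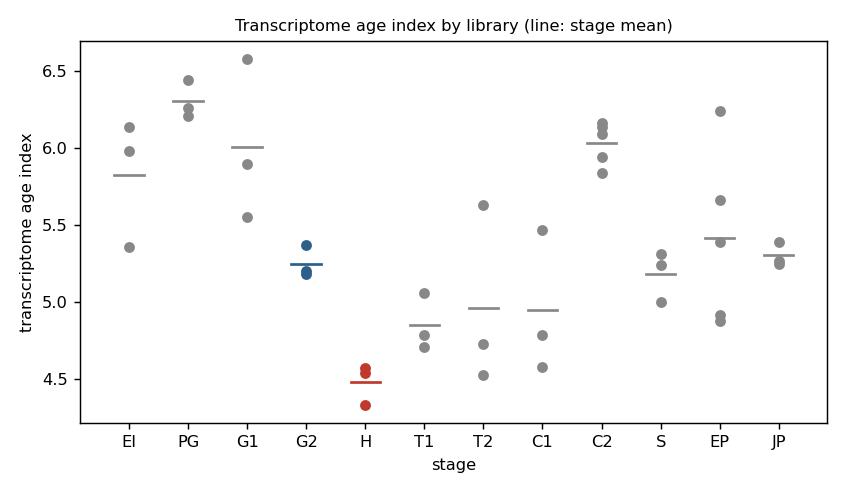
Transcriptome age index (y axis) of each of the 40 libraries by stage in order of development (x axis), over the 3839 genes with an age class, with short lines for stage means, H in red and G2 in blue. The H libraries lie between 4.33 and 4.57 and the G2 libraries between 5.18 and 5.37; the axis does not start at 0.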

How the data were processed

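RNA was depleted of rRNA and sequenced in pairs on a NextSeq 500, and the authors mapped the reads with BBMap to the 12X grapevine assembly and summed them per gene in R. The deposited values are raw counts per gene, 1 column a library. The handling of strand and of reads that fit several places: not given in the sources used here. All 40 columns matched a sample, and 29971 genes were listed.

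Counts were tested with edgeR 4.0.16 (TMM, filterByExpr, quasi-likelihood F test, Benjamini-Hochberg adjustment over all genes tested, threshold 0.05) on the 6 libraries of each comparison. CPM were scaled with TMM factors over all 40 libraries. SE is the log2 fold change divided by the root of F. On simulated counts of 21227 genes, 86.5% of 200 genes changed 4-fold were recovered, with 9 false calls. The simulation changed few genes, in equal numbers up and down. It therefore does not show the rate of false calls, or the effect of the scaling, where a majority of genes is called. DESeq2 1.42.0, its size factors, total counts, no filter, a model of all libraries, thinning to 21036578 counts, a replicate block and leaving out each library were the alternatives.

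Gene lists (34, with 589 genes) came from the study's annotation of 1075 genes, in which 770 entries were cut off at 400 characters, so lists are incomplete and were described by counts and medians. Named genes were those with a name in the study's tables, up to 2 per list and direction with the largest change among calls that reached a mean of 10 CPM in either stage and did not overlap, all called members of the auxin, cytokinin and embryo lists, the 2 largest changes per direction outside the lists, and genes above 1% of the counts. Members and lists were chosen with earlier results of these data known. The identifiers matched none of the RefSeq entries used here, so that no positions or sequences are given.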

Additional observations from a re-analysis of the deposited data

Results flagged for a closer look

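In 25 of the named genes called between H and G2, all H libraries lay on one side of all G2 libraries while all T1 libraries lay on the opposite side of all G1 libraries. The 25 were 17.4% of the 144 such genes tested in both comparisons, and 44 (30.6%) lay on the same side in both. Of all 11877 genes called between H and G2 and tested in both, 1443 (12.1%) had the opposite pattern and 3006 (25.3%) the same side. The named genes were in part chosen for H and G2 libraries that did not overlap, so nothing is read from their larger share. The difference between both comparisons was not tested. In T1 against G1, 5 of the 25 passed the test with edgeR: VIT_04s0008g05420 (adjusted p = 0.00367), VIT_05s0049g01970 (0.00803), VIT_16s0098g01230 (0.026), VIT_05s0077g01240 (0.0377) and VIT_06s0080g01090 (0.0417). In the other 20 the adjusted p lay between 0.0643 and 0.644, and only the order of the libraries is described. In each pair that follows, the log2 fold change of H over G2 stands first and that of T1 over G1 second.

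All H libraries lay above G2 and all T1 libraries below G1 in ICE1 VIT_14s0068g01200 (1.78 and -0.75), the chromatin remodelling gene VIT_15s0046g02290 (1.52 and -0.24), VIT_05s0020g02960 (1.03 and -0.74), the splicing gene VIT_18s0001g04770 (0.8 and -0.29), VIT_13s0067g01760 (0.63 and -0.43), VIT_05s0077g01240 (0.58 and -0.72), VIT_13s0084g00040 (0.56 and -0.44), VIT_09s0002g04210 (0.42 and -0.68) and VIT_11s0037g00250 (0.38 and -0.14).

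All H libraries lay below G2 and all T1 libraries above G1 in VIT_06s0080g01090, a nuclease that shortens poly(A) tails (-2.12 and 1.66), the abundant VIT_05s0020g01170 (-1.66 and 0.9), the auxin-responsive VIT_11s0016g02570 (-1.59 and 0.29), VIT_05s0049g01970 (-0.69 and 1.86) and VIT_05s0020g01340 (-0.33 and 0.81), VIT_04s0008g00650 of pattern specification (-1.46 and 0.46), the ribosomal genes VIT_04s0008g03900 (-1.41 and 0.75), VIT_01s0011g00680 (-1.32 and 0.79) and VIT_12s0034g01000 (-0.78 and 0.56), the thylakoid gene VIT_16s0098g01230 (-1.2 and 0.86), VIT_11s0016g02010 (-1.06 and 1.77), OMT3.1 VIT_01s0010g03460 (-0.88 and 0.61), CBL02 VIT_19s0015g01070 (-0.84 and 0.5), VIT_04s0008g05420 (-0.78 and 2.16), VIT_18s0041g01840 (-0.59 and 0.47) and HIR VIT_01s0026g01640 (-0.52 and 0.61).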

How the results depend on the processing

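For H against G2, DESeq2, its size factors, total counts, no filter, thinning and the replicate block gave between 11259 (replicate block) and 12287 calls beside 12138, and leaving out 1 library gave 9007 (without G2 replicate 2) to 12483 (without G2 replicate 3); no gene called in both changed sign under any of these. The one model of all 40 libraries gave 5611. For T1 against G1, the alternatives run, which did not include thinning, gave 3664 (replicate block) to 5999 (DESeq2) calls beside 4227, and leaving out 1 library gave 1985 to 5121. The replicate numbers were not used as pairs in the main test, since the labels do not say that they mark pairs. The deviations of same-numbered libraries from their stage means had r = 0.181, -0.0708 and 0.228. Libraries of different number were not compared, so these values cannot decide whether the numbers mark pairs. Of the 144 named genes called, 59 were lost in the model of all libraries, 16 with total counts and 3 to 22 in the others, none with a changed sign. Total counts turned the median of the chloroplast (0.17), water deprivation (0.02) and defense (0.11) lists. In these the median with TMM factors was farther from 0 than the SD of the list median between libraries. Medians nearer to 0 than that also changed sign. These were chromatin organisation (-0.06 to 0.18), DNA replication (-0.07 to 0.18), mitotic cell cycle (-0.03 to 0.21), heat (-0.08 to 0.17) and terpene synthase (-0.01 to 0.22). The difference of the age index was -0.813 to -0.694 with 1 library left out, -0.26 without the 10 most abundant genes, and -0.18 without the 2 genes that lowered it most, which was added after seeing the data. The causes were not tested. At this depth, 6 of the 45 genes with a name were too low to test.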

Other observations

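VIT_06s0009g02780 and VIT_07s0005g05600 moved together over the 40 libraries of the series. Without TMM factors VIT_06s0009g02780 lay between 148 and 39500 CPM and VIT_07s0005g05600 between 95.1 and 21600 CPM, while their ratio stayed between 0.86 and 2.6, with a median of 1.79. Both held at least 1000 counts in all 40 libraries. Among the 6 libraries of H and G2, H replicate 2 and G2 replicate 2 held the highest levels of VIT_06s0009g02780.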
